A study of Mus musculus with 3 samples.

Results

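Glutathione transferases and the microsomal epoxide hydrolase Ephx1 were followed in mouse skin over the first 2 days after cyclophosphamide. The set was named as 10 genes: Ephx1, Gsta4, Gstm1, Gstm2, Gstm5, Gsto1, Gstp1, Gstt1, Mgst1 and Mgst3. A gene was assigned a UniGene cluster of the deposited tables by the description of the cluster or by an exact match of its tags to reference transcripts. Of 20595 clusters, this gave a cluster for 8 of the 10 genes, and the levels of Gsta4 and Gstt1 are not analysed here. Mgst1 had 10 tags in all, so 7 members were among the 13812 clusters with 15 or more tags. The 10 genes were selected on enzyme class with their tag counts and ratios across these days already known, so their ratios are given as a description, without a test.

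Whole skin came from male C57BL/6 mice, 2 months old, depilated 9 days before injection, a treatment that starts hair growth. There were 3 groups with 1 library each: untreated skin (day 0), and skin 1 day and 2 days after 150 mg/kg cyclophosphamide into the peritoneum. The sample labels write this dose per km, the series design text per kg. Transcripts were counted through tags of 21 bases, each beginning with the CATG that the enzyme NlaIII cuts, and 2636804 to 2859653 tags per library had been assigned to clusters. The treated skins were also 1 and 2 days further into hair growth, and the drug and that time cannot be told apart. The sources used here do not give the number of mice per library, and without replicates the spread between animals is unknown for every difference between days.

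Cyclophosphamide is an inactive prodrug that cytochrome P450 enzymes turn into a DNA-alkylating mustard and the reactive aldehyde acrolein. Glutathione transferases join the thiol of glutathione to such electrophiles, and the conjugates are then exported from the cell. Microsomal epoxide hydrolase adds water to epoxides, another class of reactive metabolite, and Ephx1 is known as a transcriptional target of p53 in mouse. The mu class enzymes (Gstm), the pi class enzyme Gstp1 and the omega class enzyme Gsto1 are soluble, whereas Mgst1 and Mgst3 belong to a separate family of membrane proteins.

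The tags that carry these measurements are shown first, since each level rests mostly on 1 sequence. Capitals mark the CATG site, and each line is the leading tag of a cluster, 5′ to 3′ on the strand of the transcript, as deposited.
Ephx1: CATGgctttaatgataaatgg
Gstm1: CATGgccccttcttcattggc
Gstm2: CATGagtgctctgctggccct
Gstm5: CATGtgccgttttgaggcttt
Gsto1: CATGtctgaaaactgtgattt
Gstp1: CATGcgaatgctgctggctga
Mgst3: CATGtacagcacagatcctga
Mgst1: CATGgacaatgaggtgttgat

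All 8 leading tags matched transcripts of 1 gene exactly in GENCODE M21 (GRCm38). Within 1 mismatch, the Gstm1 tag also matched Gstm3 and the Gstp1 tag also matched Gstp2, so reads of those neighbours could be counted with them if the authors allowed a mismatch. Of the 8259 copies in these clusters, 21 belonged to 10 tags with no exact match, none with more than 3 copies over the 3 libraries. The Ephx1 tag held 98.6% of its cluster and lay in the 3′ UTR (exon 9 of 9, chr1:180989568-180989588, minus strand), 14 bases from the transcript end. The Gstm1 tag (98.1%) lay in the 3′ UTR of exon 8 of 8 at chr3:108012463-108012483 and the Gstm2 tag (88.3%) in that of exon 8 of 8 at chr3:107981998-107982018, both on the minus strand. Gstm5 was read through a coding tag across the junction of exons 7 and 8 (99.7%, chr3:107898261-107898455, plus strand), and Gsto1 through a 3′ UTR tag in exon 6 of 6 (97.6%, chr19:47864719-47864739, plus strand).

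These 5 tags sat at the last CATG site of the transcript, the site from which most tags are made in this method. The other 3 did not. The Mgst3 tag (99.8%) lay in coding exon 3 of 6 (chr1:167377306-167377326, minus strand), at site 4 from the 3′ end, and the tag of the last site had 0 listed copies. The Gstp1 tag lay in coding exon 3 of 7 (chr19:4037363-4037383, minus strand), at site 2, and the tag of its last site occurs in 3 genes. The Mgst1 tag lay at chr6:138147710-138147730, plus strand. Levels of different members are therefore not set against each other, and members or sums of them are compared only across days.

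Ephx1 was higher on both days after the drug. It had 106 CPM (counts per 1000000 tags after scaling) at day 0, 376 at day 1 and 299 at day 2, from 299, 1014 and 814 tags. The 95% counting intervals of these levels were 94.6 to 119, 354 to 400 and 279 to 321 CPM and did not overlap. The log2 ratio was 1.82 (1.64 to 2.02) for day 1 over day 0, a 3.54-fold difference, and 1.49 (1.30 to 1.69) for day 2 over day 0, or 2.82-fold. The day 2 library stood below the day 1 library by a log2 ratio of -0.33 (-0.47 to -0.20). Among 6281 clusters at a mean of 20 CPM or more, 14 had a higher ratio than Ephx1 at day 1 and 94 at day 2. In whole skin, fewer cells of a type and less RNA per cell cannot be told apart, here and in all values that follow.

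By site, the Ephx1 difference lay in the leading tag, with 294, 1003 and 800 copies at days 0, 1 and 2. The tag at the next CATG site upstream, CATGgctttagcagcagccct, also in the 3′ UTR, had 3, 3 and 11 copies. These are too few copies to set against the leading tag.

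Gstm5, Gstm1 and Mgst3 stood lowest at day 2. Gstm5, a mu class enzyme, had 128 CPM at day 0, 92.1 at day 1 and 60.3 at day 2, and no counting interval of these 3 levels overlapped another. Its log2 ratio was -0.47 (-0.71 to -0.23) at day 1 over day 0 and -1.08 (-1.36 to -0.81) at day 2 over day 0, the only member past 2-fold in the lower direction. Gstm1, the mu class enzyme next to Gstm2 on chromosome 3, had 181 CPM at day 0, 179 at day 1 and 102 at day 2. Days 0 and 1 of Gstm1 overlapped and day 2 lay below both, at a log2 ratio of -0.83 (-1.05 to -0.62) over day 0. Mgst3, a membrane enzyme with glutathione transferase and peroxidase activity, had 371, 323 and 222 CPM at days 0, 1 and 2, with no overlap between the intervals. Its ratios over day 0 were -0.20 (-0.33 to -0.07) at day 1 and -0.74 (-0.89 to -0.59) at day 2. Both Gstm1 and Mgst3 were thus lower at day 2 by less than 2-fold.

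Summed over Gstm1, Gstm5 and Mgst3, the level was 679.9 CPM (650 to 711) at day 0, 594 (565 to 624) at day 1 and 384 (361 to 408) at day 2. These genes were put together because they stood lowest at day 2, so the lower sum at day 2 follows from that choice. Read against day 1, the day 2 library was lower by a log2 ratio of -0.82 for Gstm1, -0.61 for Gstm5 and -0.54 for Mgst3. The median over the 6281 more abundant clusters was -0.06. These lower ratios follow from the same choice, so nothing is read from their distance to that median.

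The other 4 members were under 2-fold or had too few tags. Gstm2 had 35.2, 38.6 and 38.3 CPM at days 0, 1 and 2, with overlapping intervals and log2 ratios of 0.13 (-0.28 to 0.55) and 0.12 (-0.29 to 0.53) over day 0. Gsto1, an omega class enzyme that reduces dehydroascorbate and protein-bound glutathione, had 129, 158 and 146 CPM. Only its day 0 and day 1 intervals did not overlap. Its ratio was 0.29 (0.09 to 0.50) at day 1 and 0.18 (-0.02 to 0.40) at day 2. Of the scalings used, only that by assigned tags gave a day 1 interval that spans no difference, with a ratio of 0.165 (-0.04 to 0.37). Gstp1, the pi class enzyme known for conjugating alkylating drugs, was read from 30, 16 and 28 tags, with a ratio of -0.83 (-1.82 to 0.08) at day 1 and -0.05 (-0.85 to 0.74) at day 2. Mgst1, a membrane enzyme of the endoplasmic reticulum and mitochondria, had 2, 6 and 2 tags, and its differences were not detectable at this depth.

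**Figure D1:**
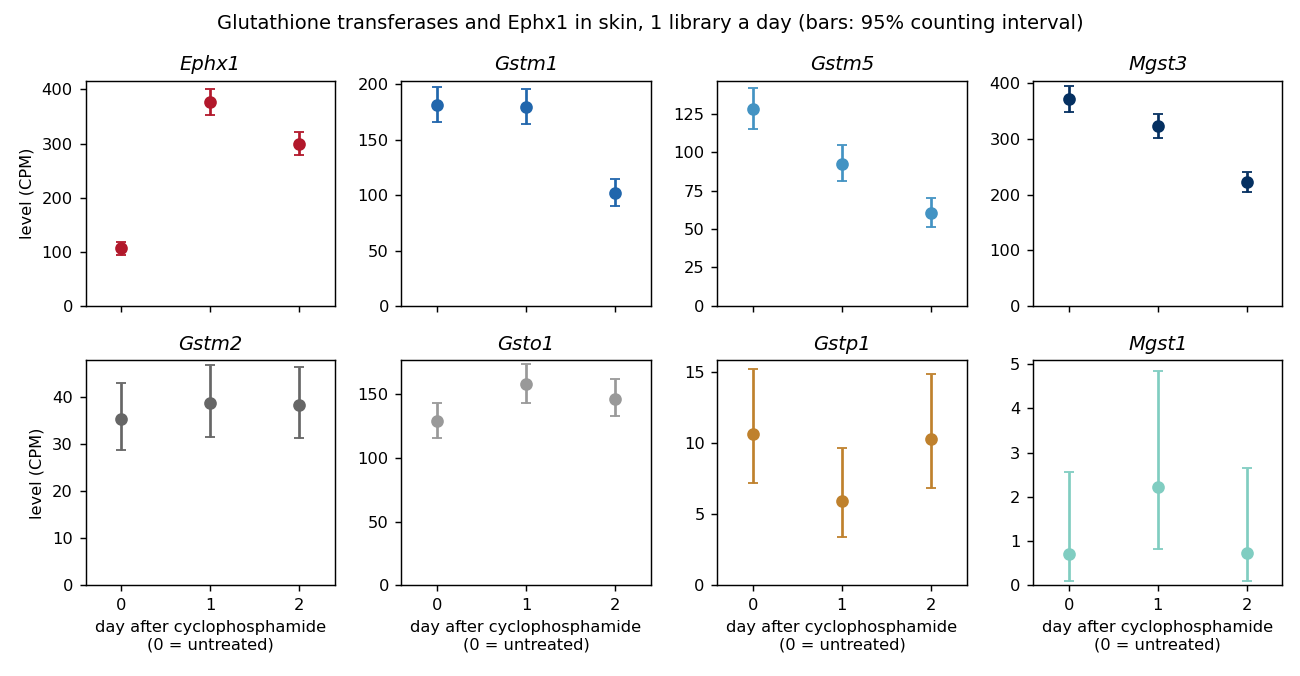
Level of each of the 8 genes with a cluster (y axis, CPM, from 0; each panel has its own scale) at days 0, 1 and 2 after cyclophosphamide (x axis), 1 library a day; bars are 95% counting intervals. Ephx1 lies higher at days 1 and 2, Gstm1, Gstm5 and Mgst3 lie lowest at day 2, and the intervals of Gstm2, Gstp1 and Mgst1 overlap across days.

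Counted over the 7 members with 15 or more tags, 1 (Ephx1) was past 2-fold higher and 0 lower at day 1 over day 0, where 5.79% of all 13812 clusters were past 2-fold higher and 6.83% lower. At day 2 over day 0, 1 (Ephx1) was higher and 1 (Gstm5) lower, where 9.11% of all clusters were higher and 8.2% lower. In the day 2 over day 1 comparison 0 were past 2-fold in either direction, where 7.8% of all clusters were higher and 4.89% lower. Since the members were named for such values, nothing is read from these shares. The median log2 ratio of the 7 was -0.01, -0.05 and -0.33 in these comparisons, beside -0.02, 0.01 and -0.01 over all 13812 clusters. The first 2 comparisons share the day 0 library.

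**Figure D2:**
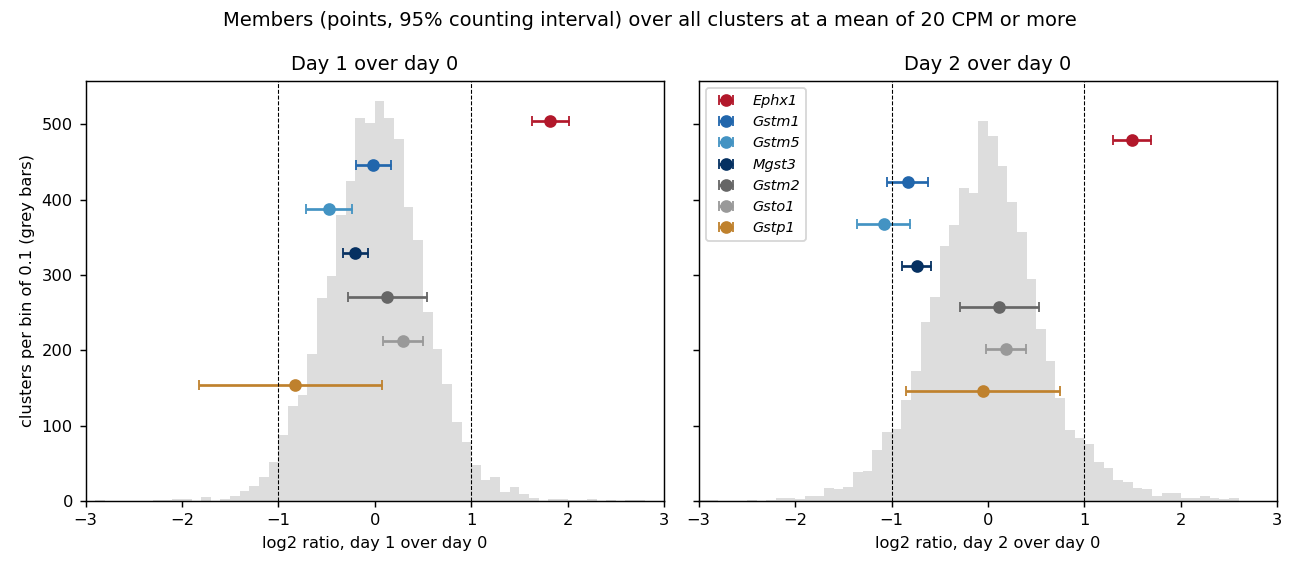
Log2 ratio (x axis) of the 7 members with 15 or more tags, as points with 95% counting intervals, for day 1 over day 0 (left) and day 2 over day 0 (right), set over grey bars that count the 6281 clusters at a mean of 20 CPM or more per bin of 0.1 (y axis; the height of a point carries no value). Dashed lines mark 2-fold; Ephx1 lies beyond the upper line in both panels and Gstm5 beyond the lower line at day 2.

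Summed levels add tags read from different sites, so they follow the members with most tags. All 8 genes together had 962 CPM (926 to 998) at day 0, 1175 (1134 to 1216) at day 1 and 879 (844 to 915) at day 2. Without Mgst3, the member with most tags, the sum at day 2 over day 0 had a positive log2 ratio of 0.15 in place of -0.13. The 7 transferases alone had 855, 798 and 579.7 CPM, a log2 ratio of -0.10 (-0.18 to -0.01) at day 1 and -0.56 (-0.65 to -0.47) at day 2 over day 0.

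The mu class genes lie together on chromosome 3, and they did not move as 1 block. From Gstm5 (chr3:107895821-107898686) the order is Gstm7 (chr3:107926334-107931817), Gstm2 (chr3:107981702-107986453), Gstm1 (chr3:108012255-108017973) and Gstm4 (chr3:108040408-108044894). Gstm7 had 20, 12 and 9 tags at days 0, 1 and 2, a log2 ratio of -1.06 (-2.42 to 0.10) at day 2 over day 0. Gstm4 went the other way, with 7.11, 14.5 and 27.2 CPM from 20, 39 and 74 tags. Its ratios over day 0 were 1.01 (0.21 to 1.88) at day 1 and 1.91 (1.21 to 2.73) at day 2. The Gstm4 tag has no exact match inside any transcript, because it runs off the end of one. Its first 13 bases, in capitals, are the end of the annotated transcript Gstm4-201, followed by 8 bases of A, and no other gene has a transcript with this end.
Gstm4: CATGCTTTCGTAAaaaaaaaa

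Some mu class tags could not be told from a paralog if a mismatch was allowed. The Gstm2 tag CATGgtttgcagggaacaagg, with 6, 13 and 7 copies at days 0, 1 and 2 (8.47% of its cluster), lay within 1 mismatch of Gstm1 and Gstm3. Among tags of Gstm1, Gstm2 and Gstm5 that match 1 gene exactly, the most alike pair from different genes differs at 3 positions. The differing bases are in capitals below, and both are minor tags of their clusters (18 and 2 copies over the 3 libraries). This Gstm2 tag lay within 1 mismatch of Gstm3 and Gstm4.
Gstm1: catgaagagTagccgctAcAt
Gstm2: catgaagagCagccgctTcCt

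Most other transferases were under 2-fold from their day 0 level, and Alox5ap, a relative in leukotriene synthesis, was higher. Of 22 other genes of both transferase families and their relatives, with Gstm4 and Gstm7 of the mu class among them, 14 had a cluster and 11 had 15 or more tags. At day 1 over day 0, 1 was past 2-fold higher (Gstm4, only just, and under 2-fold when scaled by assigned or kept tags) and 0 lower, with a median log2 ratio of 0.04. At day 2 over day 0, 3 were higher (Gstm4, Alox5ap and Hpgds) and 1 lower (Gstm7), with a median of 0.05. For this list and those below, the shares over all 13812 clusters were 5.79% higher and 6.83% lower at day 1 over day 0. At day 2 over day 0 they were 9.11% and 8.2%. The lists were chosen with earlier results known, so no excess is read from their counts. Alox5ap, the membrane protein that hands arachidonic acid to 5-lipoxygenase, had 55.5, 96.9 and 184 CPM at days 0, 1 and 2, a ratio of 1.73 (1.47 to 2.00) at day 2 over day 0. Hpgds, a prostaglandin D2 synthase of the sigma class, was named after its value was seen and rested on 2, 4 and 9 tags. Ptges, which makes prostaglandin E2, had 24.2, 46.4 and 41.6 CPM, under 2-fold on both days. Gstz1, an enzyme of tyrosine breakdown, had 107, 96.5 and 76.5 CPM, and Gstk1, the kappa class enzyme, had 87.1, 89.5 and 80.6 CPM.

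Macrophage marker genes were also higher in sum at day 2, and not at day 1, where Alox5ap had a ratio of 0.80 (0.51 to 1.10) over day 0 and the marker sum one of 0.11 (-0.04 to 0.25). Of 11 markers 9 had a cluster, 8 of them with a positive ratio at day 2 over day 0, where 50.43% of all 13812 clusters had one. The summed level of the markers was 279, 299.9 and 632 CPM at days 0, 1 and 2, with none of the 9 unlisted on any day. Their part in the Alox5ap values was not tested.

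The other epoxide hydrolases did not share the pattern of Ephx1. Of 4 genes 3 had 15 or more tags and 0 were past 2-fold on either day, with medians of 0.10 at day 1 and -0.21 at day 2 over day 0. Ephx2, the soluble hydrolase of fatty acid epoxides, had 45.9, 49.0 and 39.7 CPM. Ephx3, a hydrolase of epidermal lipids, had 153, 144 and 97.1 CPM, a ratio of -0.65 (-0.88 to -0.43) at day 2 over day 0. Lta4h, the leukotriene A4 hydrolase, had 104, 119.9 and 96.0 CPM.

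Genes of glutathione synthesis, recycling, breakdown and precursor import had a positive median ratio at day 1 and a negative one at day 2, nearly all under 2-fold. Of 19 genes with 15 or more tags, 0 were past 2-fold at day 1 over day 0, with a median of 0.32 and 15 positive ratios. At day 2 over day 0, 0 were higher and 1 lower, with a median of -0.20 and 4 positive ratios. Over all 13812 clusters, 48.71% of ratios were positive at day 1 over day 0 and 50.43% at day 2 over day 0. Scaled by assigned tags, the list medians were 0.195 and -0.201. The gene past 2-fold was Gss, glutathione synthetase, with 22.4, 13.0 and 9.56 CPM and a ratio of -1.21 (-1.95 to -0.55). Ggt1, which cleaves glutathione outside the cell, had 42.0, 54.2 and 23.2 CPM, past 2-fold for day 2 over day 1 (-1.22, -1.68 to -0.79). Slc7a11, the cystine importer, had 29.2, 48.3 and 32.4 CPM. The enzymes of synthesis and reduction did not share 1 direction at day 1 over day 0, with ratios of -0.36 (-0.82 to 0.10) for Gclc, 0.28 (-0.46 to 1.04) for Gclm, -0.78 (-1.43 to -0.17) for Gss and 0.09 (-0.14 to 0.33) for Gsr. Gclc and Gclm are the subunits of the first enzyme of synthesis, and Gsr is glutathione reductase. At day 2 over day 0, Gclc had -0.49 (-0.98 to -0.03), Gclm 0.05 (-0.73 to 0.83) and Gsr -0.50 (-0.76 to -0.25).

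Nrf2, encoded by Nfe2l2, is the transcription factor best known for inducing transferases and glutathione synthesis. Of 8 genes of its control 0 were past 2-fold at day 1 or day 2 over day 0. Nfe2l2 had 11.0, 14.5 and 19.9 CPM, its inhibitor Keap1 107, 94.7 and 87.2 CPM, and Sqstm1, a protein that binds Keap1, 322, 638 and 570 CPM. Sqstm1 stood just under 2-fold at day 1 (just past it with DESeq2 size factors), at 0.99 (0.87 to 1.10) and 0.82 (0.70 to 0.94) over day 0. Bach1, a repressor at Nrf2 sites, had 26.3, 15.2 and 40.1 CPM and was past 2-fold for day 2 over day 1 (1.39, 0.87 to 1.95). Mafg, a partner of Nrf2, had 53.3, 42.0 and 37.1 CPM.

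Of 16 Nrf2 targets outside the members, 1 was past 2-fold higher and 0 lower on each day over day 0, with medians of -0.10 and 0.10, the first with 7 positive ratios and the second with 10. The gene was Akr1b8 on both days, an aldo-keto reductase, with 28.4, 60.1 and 89.7 CPM and ratios of 1.08 (0.69 to 1.49) and 1.65 (1.29 to 2.04). The first was 0.95, under 2-fold, when scaled by assigned tags. Srxn1, which repairs peroxiredoxins, had 29.9, 50.9 and 41.2 CPM. Hmox1, haem oxygenase, had 157, 98.4 and 152 CPM, and G6pdx, the first enzyme of the pentose phosphate pathway, had 133, 119.9 and 77.6 CPM.

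In the promoter, Nrf2 acts through antioxidant response elements, whose core letters are TGACNNNGC. These letters were searched on both strands of the 250 bases before each start in RefSeq windows (GRCm38.p6). They occurred in 10.2% of 32851 windows and in 2 of 11 windows of members (18.2%), 1 each of Gstm5 and Mgst1, and did not occur in the windows of Ephx1, Gstm1 or Mgst3. The 11 windows came from 9 of the 10 named genes, with or without a cluster. The matches are shown in capitals with the bases around them, on the strand of the gene, since Gstm5 is the member that was lower by over 2-fold. In Gstm5 the stretch is chr3:107895792-107895840, plus strand, and in Mgst1 it is chr6:138140451-138140499, plus strand, with the letters on the opposite strand. The GENCODE M21 gene of Mgst1 begins at chr6:138140316, so this stretch precedes a RefSeq start but lies inside the GENCODE gene. That of Gstm5 begins at chr3:107895821, within the stretch shown and directly after the letters. A match describes letters and is no evidence of binding.
Gstm5: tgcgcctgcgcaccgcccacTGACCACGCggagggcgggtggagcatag
Mgst1: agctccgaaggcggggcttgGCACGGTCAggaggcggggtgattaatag

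Export pumps for conjugates were mixed. Of 9 genes with 15 or more tags 0 were past 2-fold at day 1, with a median of 0.06, and 1 was higher and 1 lower at day 2 over day 0, with a median of 0.53. Abcc5, an exporter of organic anions, had 18.8, 37.9 and 44.5 CPM, at 1.00 (0.51 to 1.51) and 1.23 (0.76 to 1.73) over day 0. Its day 1 ratio was just under the limit with the pseudocount. It was past the limit without a pseudocount (2.009-fold) or with DESeq2 size factors. The lower gene was Abcc3, on 8, 5 and 2 tags, named after its value was seen. Abcc1, the classical pump for glutathione conjugates, had 79.3, 68.7 and 62.2 CPM.

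Of 10 genes for cytochrome P450 enzymes and their partners, 0 were higher and 1 lower at day 1 over day 0 and 2 were higher and 0 lower at day 2. Cyp2b19, an epoxygenase of keratinocytes, had 20.98, 31.6 and 57.7 CPM, a ratio of 1.45 (1.02 to 1.92) at day 2. The other higher gene was the retinoic acid hydroxylase Cyp26b1, on 14, 24 and 31 tags, and the lower was Cyp2b23, on 16, 7 and 8, both named after their values were seen. Cyp1a1, a target of the receptor Ahr, had 40.5, 23.0 and 38.3 CPM, and Cyp2b10 had 32.4, 39.0 and 47.8 CPM. Medians were 0.06 and -0.02. Of 4 xenobiotic receptors 0 were past 2-fold, with medians of -0.11 and 0.24. Ahr had 24.9, 23.4 and 43.4 CPM and Rxra had 179.6, 235 and 221 CPM.

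Among 6 other conjugating enzymes 0 were past 2-fold at day 1 over day 0, with a median of -0.09, and 0 were higher and 1 lower at day 2, with a median of -0.08. Sult2b1, which sulfates cholesterol in the epidermis, had 136, 113 and 48.9 CPM, a ratio of -1.47 (-1.76 to -1.18) at day 2 over day 0. Nnmt, which methylates nicotinamide, had 30.6, 19.7 and 20.2 CPM.

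**Figure D3:**
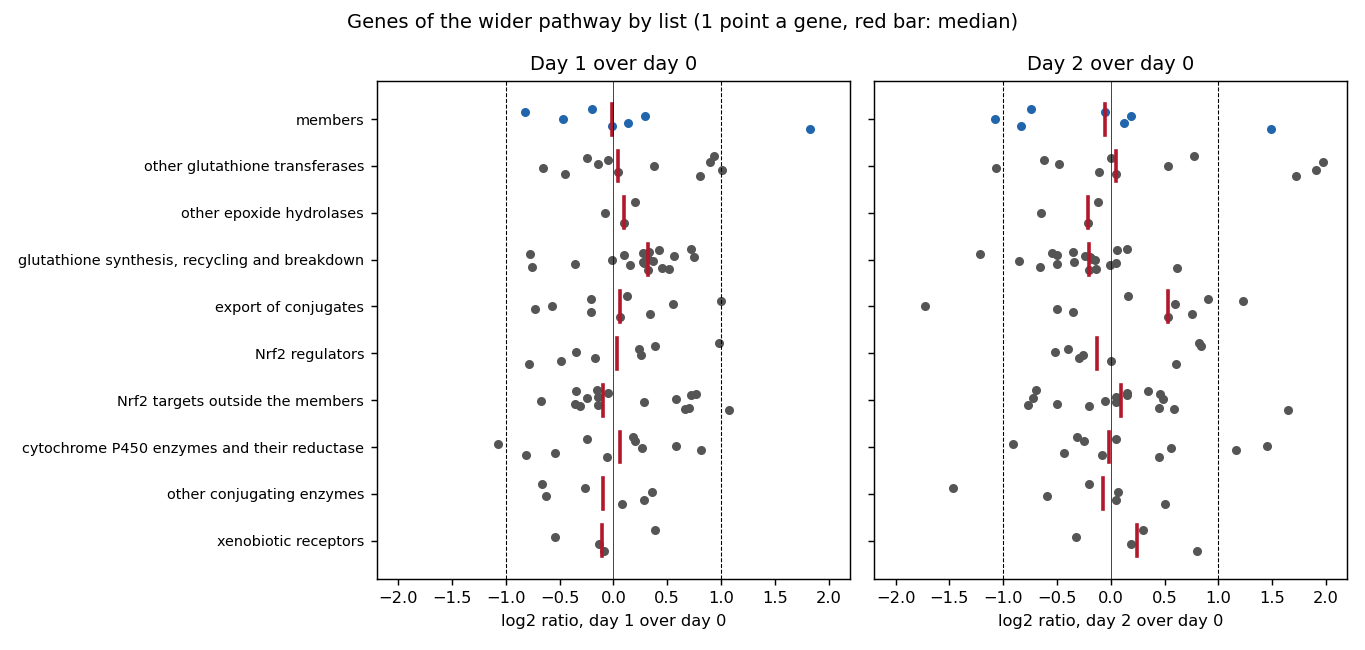
Log2 ratio (x axis) of each gene with 15 or more tags for day 1 over day 0 (left) and day 2 over day 0 (right), by list (rows): the 7 members in blue on top, 9 lists of the wider pathway in grey below. Red bars are medians and dashed lines mark 2-fold; most genes lie within the lines, with Ephx1 alone among the blue points beyond the upper line.

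Ephx1 was also compared with all other named genes at a mean of 20 CPM or more, by the distance between pairs of log2 ratios (day 1 and day 2 over day 0). The 5 nearest of 5846 were Sh3d21 (distance 0.23), Phf11d (0.27), Irgm2 (0.28), Klhl26 (0.31) and Tbc1d1 (0.33). Their levels were 9.24 to 14.6 CPM at day 0, 26.7 to 43.4 CPM at day 1 and 22.8 to 42.3 CPM at day 2. All 5 were thus below 20 CPM at day 0 and reached that mean only through their higher days. They rested on 26 to 41 tags at day 0. Their intervals, such as 1.31 to 2.63 for Sh3d21 at day 1 over day 0, are wider than these distances, so their order is not resolved. Likeness over 3 libraries describes these values only.

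Several sums of tissue marker genes differed between the same libraries, and a sum follows its most abundant genes. Skeletal muscle markers (12 of 12 with a cluster) summed to 12740, 19610 and 25710 CPM at days 0, 1 and 2, adipocyte markers (8 of 8) to 4479, 3317 and 2759 CPM (4 of 8 with a positive ratio at day 1 over day 0 and 3 of 8 at day 2), and red cell markers (5 of 7) to 1810, 1617 and 141 CPM. Epidermal keratinocyte markers (7 of 7) summed to 11990, 16380 and 15330 CPM and fibroblast markers (7 of 7) to 3484, 2280 and 3777 CPM. Hair shaft markers (5 of 7) summed to 5446, 7710 and 5389 CPM, with 4 of 5 ratios over day 0 positive on each day. Sebaceous gland markers (9 of 10) summed to 1739, 1475 and 2103 CPM, with 3 of 9 positive at day 1 and 6 of 9 at day 2. Melanocyte markers (6 of 6) summed to 459, 703 and 596 CPM, with 4 of 6 and 3 of 6 positive and a median of 0.015 at day 2. Endothelial markers (4 of 4) summed to 64.4, 62.0 and 98.9 CPM, with 2 of 4 and 3 of 4 positive. Liver markers, which skin should lack, stayed at 4.83 to 7.47 CPM (2 of 4). Unlisted on some day were Kdr (days 0 and 2), Slc4a1 (day 1), Hba-a2 (day 2) and the liver gene Apoa1 (days 0 and 2). The part of these shifts in the values of the members was not tested.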

How the data were processed

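Per the labels' protocols, polyadenylated RNA was copied to cDNA and cut with NlaIII, and MmeI released tags of CATG and 17 bases. The sources used here do not name the aligner, the mismatches allowed or the genome build. Per the file headers, the deposited tables hold a raw count of tags per UniGene cluster, each tag with its copy number, and TPM values per 1000000 of all tags the authors kept (6030090, 6070057 and 5666060 at days 0, 1 and 2). The tables hold 45.3%, 47.1% and 46.5% of these. The smallest copy number listed is 2, so an unlisted gene need not have had 0 tags.

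Tags were matched exactly to GENCODE M21 transcripts, sense strand. A cluster took the gene with 80% of its matched and 50% of all its tags (15076 by unique tags, 767 by shared tags), then its RefSeq accession (195) or its description (11), and 4546 stayed unnamed. For a gene with several clusters the one with most tags was used. Counts were scaled by edgeR 4.0.16 TMM (factors 1.03, 0.942 and 1.03). DESeq2 1.42.0 size factors were an alternative. With 1 library a group no replicate test exists, so edgeR's quasi-likelihood test was not used and no p-value is given. A gene was past 2-fold when its log2 ratio, with a pseudocount of 0.5 tags, reached 1 either way. Ratio intervals are exact (Clopper-Pearson) and level intervals exact (Poisson), at 95%. Both cover counting error only, and PCR copies cannot be told from molecules. Ratios and intervals were checked on simulated data, a check of the calculation that cannot show the spread between animals.

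The members and lists were chosen with earlier results of these data known. All members are named, from each list up to 3 genes with the largest ratios at 20 CPM or more, a few fixed genes wherever measured, and the 5 genes nearest to Ephx1. Of the genes this rule gives, 2 are not reported here.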

Additional observations from a re-analysis of the deposited data

How the results depend on the processing

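No paired analysis was possible because each group has 1 library and no result comes from a test. For single members, 156 ratios were recomputed under other scalings, tag choices, pseudocounts and filters, and all 156 stayed inside their counting intervals. Many of these could not have moved far. Dropping the filter on low counts leaves the ratio of a member unchanged, and no scaling shifted a ratio by more than 0.13. Gstm1, Gstm5, Gstp1 and Mgst3 had no ratio from the 3′-most site as numbered in the tables, so the 156 do not cover that choice for them. With a limit of 1.5-fold in place of 2-fold, 1 member (Gstp1) was lower at day 1 over day 0, 3 were lower at day 2 over day 0, and 1 was higher and 2 were lower at day 2 over day 1. Without a filter on low counts Mgst1 entered, giving 2 higher at day 1 over day 0 and 1 lower at day 2 over day 1. With the 3′-most site as numbered in the tables, 3 members (Ephx1, Gstm2 and Gsto1) remained and 0 were lower at day 2 over day 0. The deposited numbering places the leading tags of Gstm1 and Gstm5 at sites 2 and 3. Both lay at the last CATG site of their GENCODE transcripts, so they dropped out through the numbering. The summed level was reported as log2 ratios of 0.29, -0.13 and -0.42. Without Gstm1, Gstm5 and Mgst3, which have no tags at the numbered site, it stood at 1.10 for day 1 over day 0. It was 0.86 for day 2 over day 0 and -0.25 for day 2 over day 1. Without Mgst3, the member with most tags, the sum stood at 0.53 and 0.15 over day 0. The sign at day 2 thus depends on which members enter the sum. Scaling by tags assigned to clusters moved every day 1 over day 0 ratio by -0.13 and every day 2 over day 1 ratio by 0.13, and all kept tags by -0.07 and 0.11. Assigned tags gave sums of 0.16 at day 1 over day 0 and -0.29 at day 2 over day 1, and all kept tags gave -0.31 for the second. List medians near 0 changed sign with the scaling at day 1 over day 0 for other transferases (-0.09), other epoxide hydrolases (-0.03), exporters (-0.06), Nrf2 regulators (-0.10) and P450 genes (-0.07) when scaled by assigned tags. At day 2 over day 0 the P450 median was 0.02 when scaled by all kept tags. In a check of the lists added after seeing the data, the 2-fold calls at day 1 over day 0 depended on the scaling for Gstm4 (0.88 by assigned, 0.94 by all kept tags), Akr1b8 (0.95 by assigned tags), Abcc5 (1.02) and Sqstm1 (1.00, just past the limit), the last pair with DESeq2 size factors. By assigned tags Gstm4 (1.03), Alox5ap (1.05) and Ahr (1.02) were past 2-fold at day 2 over day 1. No call in the lists changed at day 2 over day 0. Depth limits Gstp1, Mgst1, Gstm7 and Hpgds, whose intervals are wide.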
